A study of Homo sapiens with 3 samples.

Results

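The genes of the DNA replication machinery were followed by RNA-seq in 3 libraries from the established Ewing sarcoma line TC32. The 54 genes form a list of known replication factors that was chosen with earlier results of these data known, and a locus counted as a member when its gene name was one of the 54 symbols. All 54 were found, among 22714 gene names in all. They were ordered in 5 steps, which are licensing of origins (15 genes), firing of origins (9 genes), polymerases and fork proteins (20 genes), nucleotide supply (4 genes), and chromatin and control (6 genes). Genes were compared where their FPKM averaged 1 or more across the libraries, which held for 52 of the 54 and for 9939 names in all. The other two, CDT1 and POLD1, are given by their values alone.

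The libraries came from TC32 cells with knockdown of EWS-FLI1, from TC32 cells treated for 15 h with 3 µM YK-4-279 in the vehicle DMSO, and from TC32 control cells labelled as wild type. EWS-FLI1 is the fusion transcription factor that drives Ewing sarcoma, and YK-4-279 is a small molecule reported to keep EWS-FLI1 from binding the RNA helicase DHX9. The cells were grown in RPMI with fetal bovine serum. Whether the control cells had DMSO or a hairpin of their own is not stated in the labels, and neither is the duration of the knockdown. The value column of the knockdown library carries the heading dEF, against shEF in its title. There was 1 library per group. With no replicate there is no test, and higher or lower is said of these libraries only.

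Before S phase, the origin recognition complex with CDC6 and CDT1 loads the ring of MCM2 to MCM7 onto DNA, which licenses an origin. The kinases CDC7 and CDK2 then fire the origin by joining CDC45 and the GINS complex to the ring, which forms the replicative helicase. Polymerase alpha with primase starts each strand, polymerases delta and epsilon extend it on the clamp PCNA, and many of these genes are transcribed at the G1/S transition by E2F factors.

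Short stretches of promoter are shown for some of the members whose promoter held an E2F word, because such words mark many promoters of this gene class. Members without a word are not shown, among them ORC1, MCM10, CDC45, PRIM1 and FEN1, which were low after knockdown. UNG and POLE, with the highest ratios after knockdown, held a word but are not shown either. They are RefSeq sequences of build GRCh38.p14, taken from a window of 250 bases before to 50 bases after each gene's start, and are printed 5′ to 3′ along the gene's strand. Capitals mark any of 4 words, TTTCGCGC, TTTGGCGC, TTTCCCGC and TTTGCCGC, found on either strand, so a word on the opposite strand appears as its reverse complement. CDC6 loads the MCM ring and had the lowest ratio of all members with YK-4-279, and MCM3 had the lowest ratio of the ring's subunits in both libraries. Their stretches are chr17:40287629-40287908 on the plus strand and chr6:52284713-52284992 on the minus strand.
CDC6: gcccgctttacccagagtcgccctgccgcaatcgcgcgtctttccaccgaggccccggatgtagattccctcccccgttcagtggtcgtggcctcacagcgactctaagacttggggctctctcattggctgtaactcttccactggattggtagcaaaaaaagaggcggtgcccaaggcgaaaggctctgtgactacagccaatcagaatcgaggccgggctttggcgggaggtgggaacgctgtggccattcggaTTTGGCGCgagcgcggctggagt
MCM3: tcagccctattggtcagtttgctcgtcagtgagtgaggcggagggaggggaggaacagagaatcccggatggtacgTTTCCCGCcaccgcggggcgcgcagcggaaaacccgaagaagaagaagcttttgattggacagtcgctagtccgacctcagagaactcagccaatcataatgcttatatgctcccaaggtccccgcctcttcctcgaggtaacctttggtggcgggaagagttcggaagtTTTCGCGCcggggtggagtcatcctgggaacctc
The single word of CDC6 starts at base 8 of the transcript. MCM3 holds 2 words in the stretch, the first of them 174 bases before the start.

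MCM2, MCM6 and MCM7, which belong to the same ring, are shown because their ratios after knockdown lay apart, at 0.42, -0.25 and -1.96. Their stretches are chr3:127598391-127598440 on the plus strand for MCM2, chr2:135876566-135876617 on the minus strand for MCM6, and chr7:100101555-100101606 on the minus strand for MCM7.
MCM2: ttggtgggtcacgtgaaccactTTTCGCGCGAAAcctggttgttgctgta
MCM6: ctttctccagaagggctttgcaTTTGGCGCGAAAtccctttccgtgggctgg
MCM7: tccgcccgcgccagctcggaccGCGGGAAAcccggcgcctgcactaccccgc
In MCM2 and MCM6 the capitals cover 2 words on opposite strands that overlap.

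CDC7 and GINS1 are shown as the members with the lowest ratios after knockdown, and PCNA, TYMS and DTL as members of the later steps. Their stretches are chr1:91501022-91501073, chr20:25407656-25407702, chr18:657592-657643 and chr1:212035718-212035769 on the plus strand and chr20:5126652-5126703 on the minus strand.
CDC7: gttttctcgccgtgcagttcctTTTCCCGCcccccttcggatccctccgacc
GINS1: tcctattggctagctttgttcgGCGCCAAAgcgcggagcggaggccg
PCNA: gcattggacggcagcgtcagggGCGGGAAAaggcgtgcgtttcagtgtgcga
TYMS: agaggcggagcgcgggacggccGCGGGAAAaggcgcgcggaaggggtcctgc
DTL: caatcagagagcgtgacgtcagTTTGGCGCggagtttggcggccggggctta
These words start 68 bases before the start of CDC7, 59 before that of PCNA, 39 before that of TYMS and 8 before that of DTL. In GINS1 the word starts at base 6 of the transcript.

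Over all members, 24 of the 48 with a RefSeq promoter window held at least 1 of the 4 words, which is 50% of them. Of all 27305 genes in the same table, 1090 (3.99%) did, in windows of the same length. The word CCAAT, searched on both strands, stood in the windows of 29 of 48 members (60.4%) and in those of 39.7% of all genes. By step, the E2F words were found for 8 of 13 licensing genes, 5 of 8 firing genes, 7 of 17 polymerase and fork genes, 1 of 4 nucleotide supply genes and 3 of 6 chromatin and control genes.

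Levels are given as FPKM, fragments relative to transcript length and sequencing depth. Being per length, they allow only a rough comparison between genes, which is limited by overlapping genes and by settings of the counting that are not given. The deposited values differ in overall scale, and over the compared genes the median log2 ratio of the deposited values to those of the control was -2.14 after knockdown and -2.67 with YK-4-279. Each library was therefore scaled on the median gene (knockdown by 1.44, YK-4-279 by 2.12 and control by 0.325). The relative log2 ratio is the difference of log2(scaled FPKM + 1), which understates the difference of scarce genes, and genes past an absolute ratio of 1 were called higher or lower. As deposited, without scaling, 51 of 52 members were called lower in each treated library, as were 71.4% of all compared genes after knockdown and 92.2% with YK-4-279, so every direction below is relative to the median gene. This scale is blind to a change shared by all messenger RNA. FLI1, which holds the DNA-binding part of the fusion, had 1.48 FPKM in the knockdown library, 8.29 with YK-4-279 and 65.9 in the control, with relative log2 ratios of -2.84 after knockdown and -0.27 with YK-4-279.

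**Figure D1:**
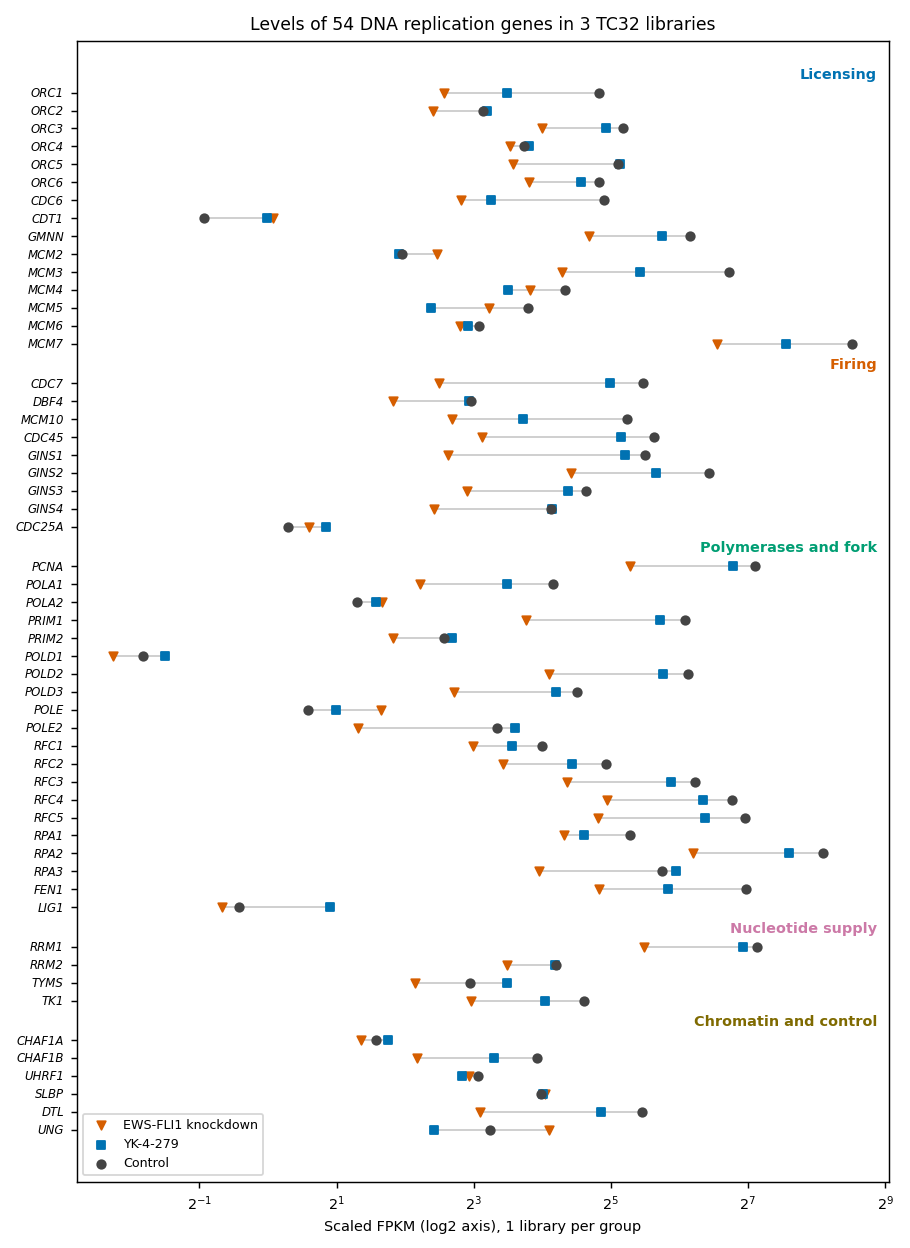
Scaled FPKM of the 54 members in each library, on a log2 axis, ordered by step, with 1 point per library and a grey line over the range of the 3 libraries. In most rows the knockdown point lies farthest left, as for CDC7 with 5.65 in the knockdown library, 31.6 with YK-4-279 and 44.5 in the control, while MCM2, POLE and UNG have their highest point in the knockdown library.

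After knockdown of EWS-FLI1, replication genes were low relative to the median gene. Of the 52 members compared, 31 were lower, 0 higher and 21 passed neither threshold, and the median relative log2 ratio was -1.54. Among all 9939 compared genes 17.0% were called lower and 17.3% higher, with a median of 0.01. The ratio lay below 0 for 46 members and ran from -2.77 (CDC7) to 0.80 (UNG). The standard error from counted fragments lay between 0.015 and 0.089 for every member, but it covers counting error only and holds nothing of the spread between cultures. At a threshold of 1.5-fold, 39 members were lower and 2 higher, against 29.5% and 29.3% of all compared genes. At the threshold used here, ORC3 stood just inside at -1.13 and ORC6 just outside at -0.98.

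Firing factors had the lowest median of the 5 steps, with 7 of 9 lower and a median of -1.97. For all counts by step after knockdown, the share of all compared genes called lower was 17.0%. That share was higher among abundant genes, as given below. CDC7, the kinase that phosphorylates the MCM ring, had 5.65 scaled FPKM in the knockdown library, 31.6 with YK-4-279 and 44.5 in the control. It was 6.83-fold lower after knockdown on the log2(scaled FPKM + 1) scale (-2.77, counting SE 0.05). Its level was thus low in the knockdown library alone. DBF4, the activating subunit of CDC7, had 3.56, 7.60 and 7.80 in the same order of libraries, a ratio of -0.95 after knockdown. The level of CDC7 over that of DBF4 was 1.59 in the knockdown library, 4.16 with YK-4-279 and 5.70 in the control.

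The cofactors of the helicase were low in the knockdown library too. GINS1 had 6.20 scaled FPKM in the knockdown library, 37.1 with YK-4-279 and 45.2 in the control, which made it 6.42-fold lower after knockdown (-2.68, counting SE 0.05). CDC45 had 8.74, 35.6 and 49.6 (-2.38). All 4 GINS genes were lower after knockdown, at -1.97 for GINS2, -1.61 for GINS3 and -1.54 for GINS4, and their median stayed below 0 under every scaling tried, between -2.42 and -1.05. MCM10, which helps activate the helicase, had 6.43 in the knockdown library, 13.2 with YK-4-279 and 37.6 in the control (-2.38 after knockdown). CDC25A, the phosphatase that activates CDK2, stood apart from these at 1.51, 1.79 and 1.22, with a ratio of 0.18 after knockdown that was -0.31 with the level trend removed, as described below.

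Licensing genes were split. Of 14 compared, 7 were lower after knockdown, with a median of -1.05. ORC1, the subunit of the origin recognition complex that varies with the cell cycle, had 5.95 scaled FPKM in the knockdown library, 11.2 with YK-4-279 and 28.5 in the control (-2.08). Of the other subunits, ORC3 (-1.13) and ORC5 (-1.46) were called lower, and ORC2 (-0.64), ORC4 (-0.18) and ORC6 (-0.98) were not. CDC6 had 7.03, 9.52 and 29.9 in the same order of libraries (-1.94 after knockdown). ORC1 and CDC6 were thus highest in the control, with the YK-4-279 library between, while ORC4 had 11.6, 14.0 and 13.3. For CDC6 the order of the treated libraries turned with the scaling. Its ratio of YK-4-279 over knockdown was 0.39 here, -0.15 when each library had the same sum and -0.30 with the level trend removed. GMNN, geminin, which binds CDT1 and prevents a repeat of licensing, had 25.7, 53.9 and 71.5 (-1.44). CDT1 itself was scarce in every library, at 0.734 FPKM in the knockdown library, 0.466 with YK-4-279 and 1.62 in the control as deposited, below the level needed for a comparison. Scaled like the other genes, CDT1 had 1.06, 0.986 and 0.526 in the same order, so the control then held its lowest value.

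The subunits of the MCM ring, which act in equal numbers in the protein, did not have equal FPKM values. MCM7 had 93.5 scaled FPKM in the knockdown library, 189 with YK-4-279 and 368 in the control. MCM2 had 5.53, 3.77 and 3.87, so the highest subunit lay 16.9-fold above the lowest in the knockdown library, 50.1-fold with YK-4-279 and 94.98-fold in the control. The subunits also moved apart after knockdown. MCM3 (19.6, 42.8 and 106) and MCM7 were lower, at -2.37 and -1.96, while MCM4 (-0.48), MCM5 (-0.51) and MCM6 (-0.25) lay between the thresholds. MCM2 had the only positive ratio of the ring, 0.42, which was -0.12 when the scale was set on all named genes above 0. The median of the ring was -0.49 after knockdown and turned to 0.06 when each library was scaled to the same sum. In the GINS complex, by comparison, the highest subunit lay 4.0-fold, 2.84-fold and 4.95-fold above the lowest in the knockdown, YK-4-279 and control libraries, and in the origin recognition complex 3.02-fold, 3.82-fold and 4.11-fold.

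Among polymerases and fork proteins, 13 of 19 were lower after knockdown, with a median of -1.73. PRIM1, the catalytic subunit of primase, had 13.6 scaled FPKM in the knockdown library, 52.4 with YK-4-279 and 68.0 in the control (-2.24, counting SE 0.05). Its partner PRIM2 had 3.53, 6.41 and 5.93 (-0.61). POLA1, the catalytic subunit of polymerase alpha, was at -1.74 and its accessory subunit POLA2 at 0.27, so within both pairs the more abundant gene had the lower ratio. PCNA, the sliding clamp, had 38.7 in the knockdown library, 109.7 with YK-4-279 and 138 in the control (-1.81). FEN1, the nuclease that trims Okazaki fragments, had 28.3, 57.1 and 125 (-2.11). The clamp loader gene RFC5 (-2.11) and the polymerase delta subunit POLD2 (-1.97) were also among the lowest. Of the 5 clamp loader genes 4 were lower and RFC1 was at -0.92, and of the 3 genes of the single-strand binding protein RPA2 and RPA3 were lower and RPA1 was at -0.94.

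Within polymerase epsilon the subunits differed. POLE, the catalytic subunit of polymerase epsilon, had 3.13 scaled FPKM in the knockdown library, 1.98 with YK-4-279 and 1.5 in the control, a ratio of 0.72 after knockdown that did not reach the threshold. POLE2, its accessory subunit, had 2.49, 12.1 and 10.1 and was lower after knockdown at -1.68. The level of POLE2 over that of POLE was 0.794 in the knockdown library, 6.11 with YK-4-279 and 6.76 in the control, so the order of their FPKM values was turned round after knockdown. POLD1, the catalytic subunit of polymerase delta, stood at 0.146, 0.167 and 0.868 FPKM as deposited, below the level needed for a comparison. Scaled, POLD1 had 0.21, 0.354 and 0.282 in the same order of libraries. LIG1, which joins Okazaki fragments, was the scarcest member compared in the knockdown and control libraries, with 0.626 scaled FPKM after knockdown, 1.87 with YK-4-279 and 0.745 in the control. Its ratio after knockdown, -0.10, rests on about 98.4 estimated fragments in the knockdown library, and its sign turned with the scaling, between -0.61 with the level trend removed and 0.56 on centred deposited ratios.

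In nucleotide supply, RRM1 and TK1 were lower after knockdown and RRM2 and TYMS were not called. RRM1, the large subunit of ribonucleotide reductase, had 44.6 scaled FPKM in the knockdown library, 122 with YK-4-279 and 141 in the control (-1.64). RRM2, the small subunit, had 11.2, 18.2 and 18.5 (-0.68). TK1, which salvages thymidine, had 7.77, 16.5 and 24.5 (-1.54), and TYMS, which makes thymidylate, had 4.41, 11.2 and 7.72 (-0.69). The YK-4-279 library held the highest value for TYMS and the control held it for the other three.

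Among chromatin and control genes, DTL and CHAF1B were lower after knockdown, and the 4 others passed neither threshold. DTL, which directs the destruction of CDT1 during S phase, had 8.51 scaled FPKM in the knockdown library, 29.1 with YK-4-279 and 43.8 in the control (-2.24, counting SE 0.04). CHAF1B, a subunit of the histone chaperone CAF-1, was at -1.55 while CHAF1A, its largest subunit, was at -0.16. UHRF1, which reads hemimethylated DNA behind the fork, stood at -0.13. SLBP, which binds the stem-loop of histone mRNAs, had 16.5, 16.2 and 15.8 and was level in all libraries on this scale. UNG, which removes uracil from DNA, had 17.1 in the knockdown library, 5.35 with YK-4-279 and 9.42 in the control. Its ratio of 0.80 was the highest of the 52 after knockdown and was positive under every scaling of the libraries but not as deposited.

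**Figure D2:**
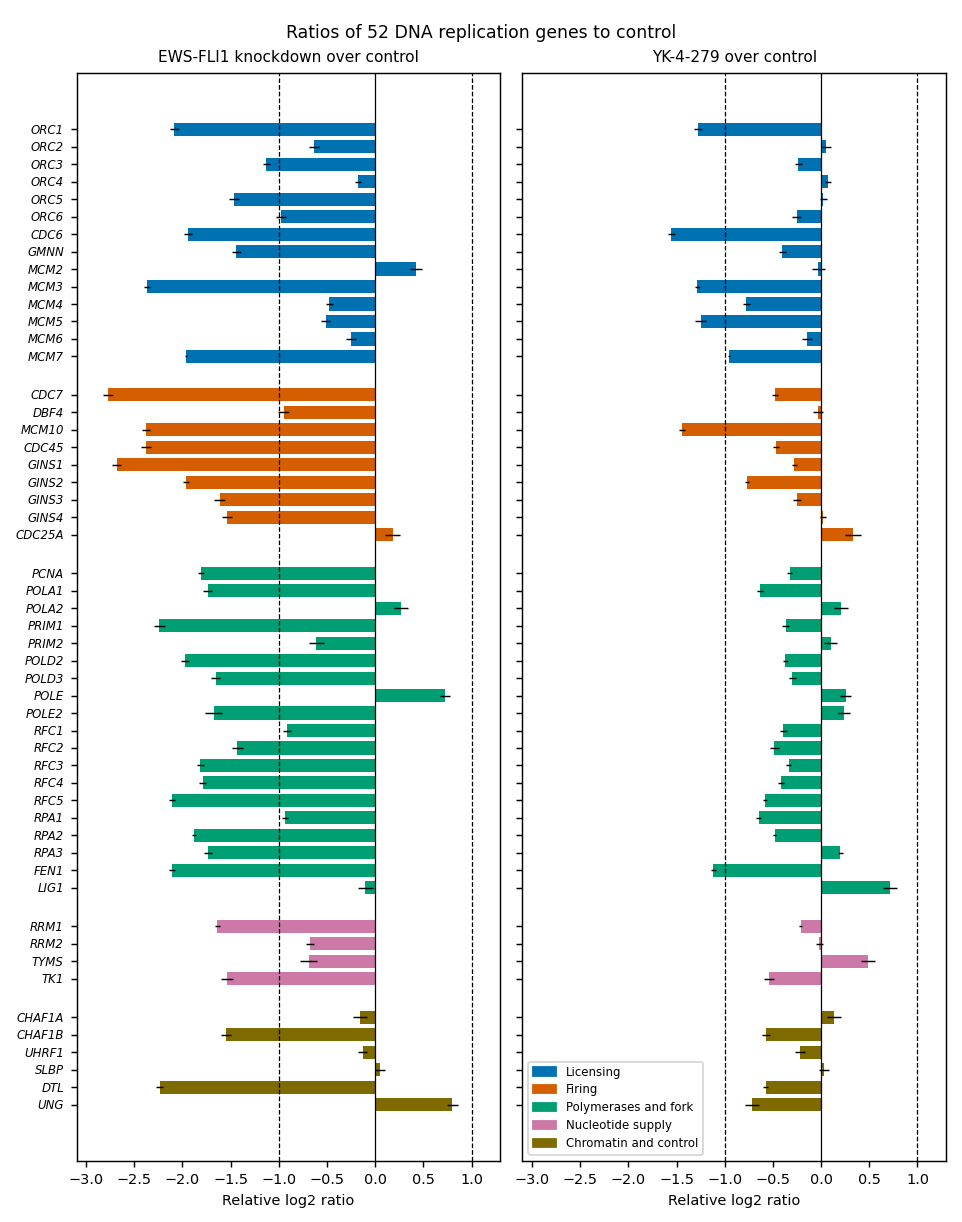
Relative log2 ratio to control of the 52 compared members, with knockdown of EWS-FLI1 in the left panel and YK-4-279 in the right panel, coloured by step. Black bars are counting standard errors, which hold no spread between cultures, and dashed lines mark the threshold of 1. After knockdown 31 bars pass the lower line, and with YK-4-279 only ORC1, CDC6, MCM3, MCM5, MCM10 and FEN1 do.

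With YK-4-279, 4 licensing genes, the firing factor MCM10 and the fork nuclease FEN1 were low. Of 52 members 6 were lower, 0 higher and 46 passed neither threshold, with a median relative log2 ratio of -0.33, against 1.69% of all compared genes lower, 2.41% higher and a median of 0.03. The ratio lay below 0 for 38 members and ran from -1.55 (CDC6) to 0.72 (LIG1). CDC6 was 2.93-fold lower on the log2(scaled FPKM + 1) scale, with a counting SE of 0.04. The other 5 were MCM10 at -1.45, MCM3 at -1.28, ORC1 at -1.27, MCM5 at -1.25 and FEN1 at -1.12. These 6 were called lower under all 5 scalings that adjust for the median gene or the sum, and 0 called higher, against 1.40% and 1.56% of all compared genes. The extent depended on the scaling, with 12 lower and a median of -0.76 on centred deposited ratios, where 4.49% of all compared genes were lower, and 17 lower and a median of -0.84 when the scale was set on all named genes, where 8.18% were. At the threshold, FEN1 stood just inside and MCM7 just outside at -0.96.

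Licensing held 4 of the 6, and its MCM subunits had all 6 ratios below 0 under every scaling, with a median of -0.87. MCM5 had 9.38 scaled FPKM in the knockdown library, 5.22 with YK-4-279 and 13.8 in the control. MCM4 had 14.2, 11.3 and 20.1 and was at -0.78 with YK-4-279. MCM5 and MCM4 were thus lowest with the compound, unlike MCM3 and MCM7, which were lowest after knockdown. MCM2 (-0.03) and MCM6 (-0.14) stood near 0. The remaining subunits of the origin recognition complex lay between -0.25 (ORC6) and 0.08 (ORC4), and GMNN was at -0.40.

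In the later steps 2 members were called with YK-4-279. The medians were -0.28 for firing, -0.37 for polymerases and fork proteins, -0.11 for nucleotide supply and -0.39 for chromatin and control. CDC7 was at -0.48, CDC45 at -0.47, GINS1 at -0.28 and GINS4 at 0.02. PCNA was at -0.33, PRIM1 at -0.37 and POLA1 at -0.64. RRM1 was at -0.21, RRM2 at -0.02 and TK1 at -0.54, all short of the threshold. The highest ratios were those of LIG1 (0.72), TYMS (0.49) and CDC25A (0.33), which also passed neither threshold. At a threshold of 1.5-fold, 12 members were lower and 1 higher, against 7.07% and 8.28% of all compared genes.

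**Figure D3:**
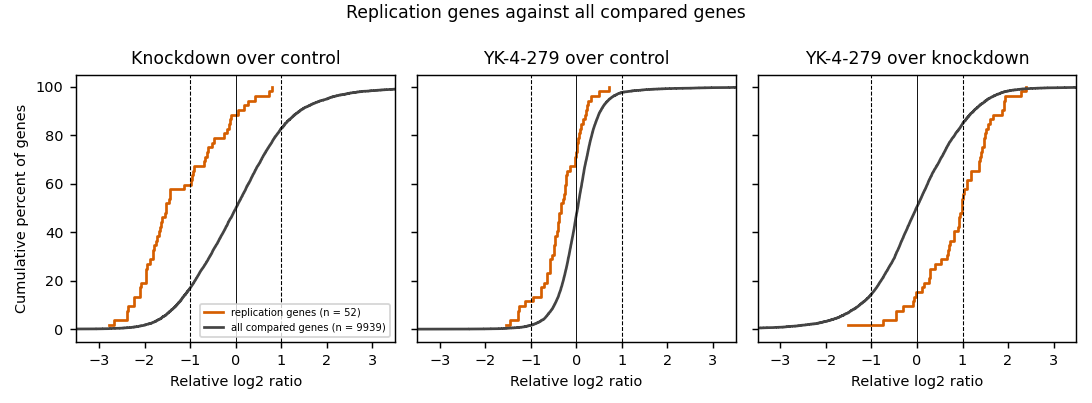
Cumulative percent of genes against the relative log2 ratio, for the 52 compared members (orange) and all 9939 compared genes (grey), with dashed lines at the threshold of 1. The members' curve lies left of the other after knockdown (medians -1.54 and 0.01), slightly left with YK-4-279 (-0.33 and 0.03), and right of it for YK-4-279 over knockdown (0.98 and -0.01).

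Set directly against the knockdown library, the YK-4-279 library held more transcript of most members. Of 52 members 24 were higher and 1 lower, with a median relative log2 ratio of 0.98, against 15.3% of all compared genes higher, 14.5% lower and a median of -0.01. These ratios use the same values as the comparisons with control and are no further evidence. The highest were GINS1 at 2.40 and CDC7 at 2.29. UNG was the lower one, at -1.51. The count depended on the scaling, with 8 higher as deposited (5.08% of all compared genes), 9 when each library had the same sum (5.88%) and 31 when the scale was set on all named genes (18.4%). With the level trend removed 9 were higher and 2 lower, against 7.65% and 11.9% of all compared genes. At a threshold of 1.5-fold 37 were higher and 2 lower, against 27.5% and 26.6%. CDC7, CDC45, GINS1, GINS4, PRIM1, POLE2 and RPA3 were called higher under all 5 scalings, 7 members in all, and UNG lower, against 4.29% and 8.43% of all compared genes.

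Among the subunits of the MCM ring the direction of that comparison differed. MCM3 was at 1.09 and MCM7 at 1.01, while MCM5 was at -0.74, MCM2 at -0.45 and MCM4 at -0.30. MCM7 stood just inside the threshold and turned to -0.06 with the level trend removed, and TK1, at 1.00 after rounding, stood just outside.

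Summed over the 54 members, the replication genes took 0.217% of all named FPKM in the knockdown library, 0.329% with YK-4-279 and 0.480% in the control. Shares of this kind amount to scaling each library to the same sum over named genes, which moved the median of all compared genes to 0.50 after knockdown. In libraries from whole cultures, fewer cells in S phase and less RNA of these genes per cell cannot be told apart.

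The ratios after knockdown moved with expression level in all genes, and the members' level differed between the libraries. Their median percentile among compared genes was 61.2 in the knockdown library, 74.8 with YK-4-279 and 79.3 in the control. Of the 52 members, 9 ranked in the top 20% of compared genes by level in the knockdown library, 20 with YK-4-279 and 26 in the control. To keep the ranking apart from the ratio, genes were ranked in the YK-4-279 library and split into 5 equal groups. In the most abundant group, all 20 members were lower with a median of -1.96, while 47.5% of all genes there were lower with a median of -0.96. In the next group, 11 of 20 members were lower with a median of -1.48, against 24.7% and -0.47 for all genes. In the remaining groups none of the 12 members was lower, where between 1.26% and 8.25% of all genes were. The members' median thus lay below that of all genes in both upper groups.

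When the running median of genes at a similar level was subtracted, 17 members remained lower and 0 were higher after knockdown, with a median of -0.75, against 8.60% of all compared genes lower and 13.8% higher. The 17 were ORC1, CDC6 and MCM3 of licensing, CDC7, MCM10, CDC45, GINS1 and GINS2 of firing, POLA1, PRIM1, POLD2, POLD3, POLE2, RFC5 and FEN1 of the fork, and CHAF1B and DTL. The same 17 were called lower under all 5 scalings, and 0 called higher, against 3.76% and 7.86% of all compared genes. Removing the level trend is itself among those 5 and called the fewest members lower, so the shared set could hold no others. PCNA at -0.71, MCM7 at -0.89 and RRM1 at -0.50 no longer reached the threshold. The medians by step were -1.10 for firing, -0.82 for polymerases and fork proteins, -0.44 for licensing, -0.40 for nucleotide supply and -0.23 for chromatin and control. With YK-4-279 no such trend stood out over all genes, although the members' own ratios were lower at higher levels, as given below. With the running median removed there, 6 members were lower and 0 higher, against 1.73% and 2.32% of all compared genes. The part of expression level in the members' ratios was not tested further.

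**Figure D4:**
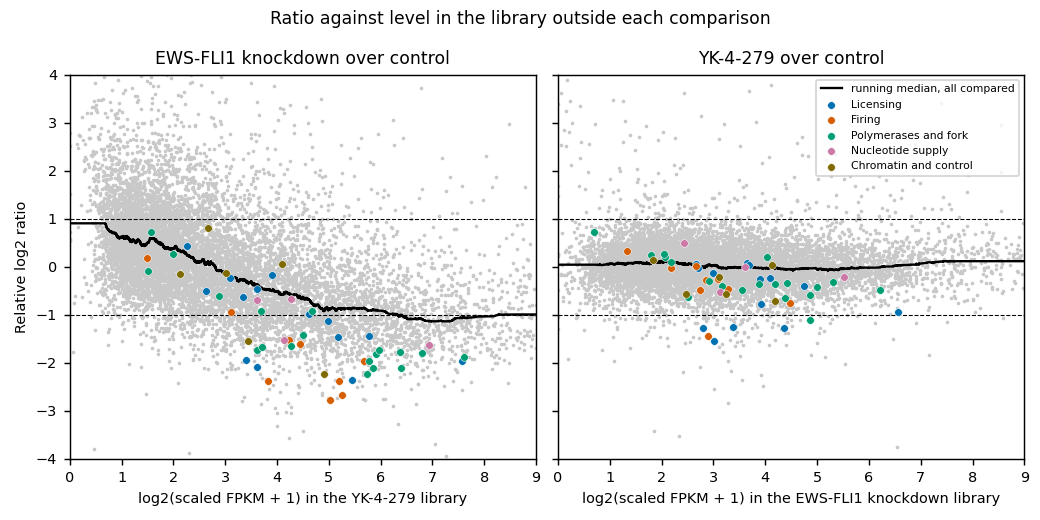
Relative log2 ratio to control against log2(scaled FPKM + 1) in the library outside the comparison, with knockdown of EWS-FLI1 at left (level with YK-4-279) and YK-4-279 at right (level after knockdown). Grey points are all compared genes, some of which lie beyond the axes, the black line is their running median over 501 genes, coloured points are the members by step, and dashed lines mark the threshold of 1. At left the black line slopes down and most members lie below it, and at right it is nearly flat.

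As a description across the 52 genes, which share the same libraries, the ratio after knockdown had a Pearson r of -0.73 and a Spearman rho of -0.71 with the level in the YK-4-279 library. Over all 9939 compared genes these were -0.47 and -0.57. The members' ratio with YK-4-279 had an r of -0.43 and a rho of -0.49 with the level in the knockdown library. Over all compared genes those values were -0.03 and -0.08. The GC content of the longest protein-coding transcript had an r of 0.31 and a rho of 0.27 with the members' ratio after knockdown, and an r of -0.06 and a rho of -0.09 with that of YK-4-279. Over the 8430 compared genes with such a transcript, r was 0.12 and rho 0.14 after knockdown. For the log2 length of that transcript, r was 0.30 and rho 0.23 over the members after knockdown, and 0.22 and 0.25 over the 8430 genes. With YK-4-279 the members' values for length were -0.05 and -0.03.

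Members whose promoter held an E2F word were set beside those without, with no test of the difference. After knockdown the 23 compared members with a word had a median of -1.61 with 14 lower, and the 23 without had a median of -1.46 with 13 lower. With YK-4-279 the medians were -0.28 and -0.37, with 2 and 3 lower. CDC7 and UNG, at opposite ends of the ratios after knockdown, both held a word.

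Other genes of DNA replication and of the cell cycle were read from separate lists. Of 35 compared genes from a list of other replication factors, 12 (34.3%) were lower and 3 higher after knockdown. Among all compared genes 17.0% were lower and 17.3% higher. The median of the list was -0.29, and it was 0.16 when each library had the same sum. The lowest were TIPIN (-2.24), which protects the fork, POLE3 (-2.00), a small subunit of polymerase epsilon, and DTYMK (-1.69), which phosphorylates thymidylate. The highest were POLD4 (1.11), the smallest subunit of polymerase delta, DONSON (1.09), which acts in helicase assembly, and CHTF8 (1.00), of an alternative clamp loader. With YK-4-279, 3 of the 35 were lower, which were SAMHD1 (-1.43), a nucleotide hydrolase, TIMELESS (-1.08), the partner of TIPIN, and CLSPN (-1.04), a checkpoint mediator. None was higher, and the largest ratios were 0.74 for POLD4, 0.56 for RNASEH2A and 0.35 for TOP2A. Among all compared genes 1.69% were lower and 2.41% higher with YK-4-279.

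Among E2F, RB and cyclin genes of the G1/S transition, 14 were compared. After knockdown 3 (21.4%) were lower and 1 higher, against 17.0% and 17.3% of all compared genes. The median of the 14 was 0.03, and it was -0.51 when the scale was set on all named genes. CCNE2, cyclin E2, had 14.5 scaled FPKM in the knockdown library, 14.2 with YK-4-279 and 84.8 in the control. Its ratios, -2.47 after knockdown and -2.49 with YK-4-279, were far from the median gene, and the second lay below the ratios of all 52 members with YK-4-279. E2F8, a repressor of the family, was lower in both, at -1.31 and -1.07. TFDP1, a partner of E2F proteins, was at -1.03 after knockdown and 0.28 with YK-4-279, and RBL2, an RB relative, was higher after knockdown at 1.36. With YK-4-279 the median was -0.12, with 2 of the 14 lower and 0 higher, against 1.69% and 2.41% of all compared genes.

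Of 22 G2/M genes, 10 (45%) were lower and 0 higher after knockdown, against 17.0% and 17.3% of all compared genes. None passed either threshold with YK-4-279, against 1.69% of all compared genes lower and 2.41% higher. The G2/M median was -0.94 after knockdown and 0.30 with YK-4-279. The median with YK-4-279 was -0.19 when the scale was set on all named genes and -0.10 on centred deposited ratios. CCNB1, the mitotic cyclin B1, had 72.8 scaled FPKM in the knockdown library, 564 with YK-4-279 and 283 in the control, at -1.94 after knockdown and 0.99 with YK-4-279. AURKB, a mitotic kinase, was at -2.56 and -0.65. With the level trend removed, 1 of the 22 was lower and 1 higher after knockdown, against 8.60% and 13.8% of all compared genes. The G2/M median was then -0.18, beside -0.75 for the replication genes. The list of other replication factors had -0.45 and the E2F list -0.13 on that scale. These lists were written with earlier results of the data known, and their differences were not tested.

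**Figure D5:**
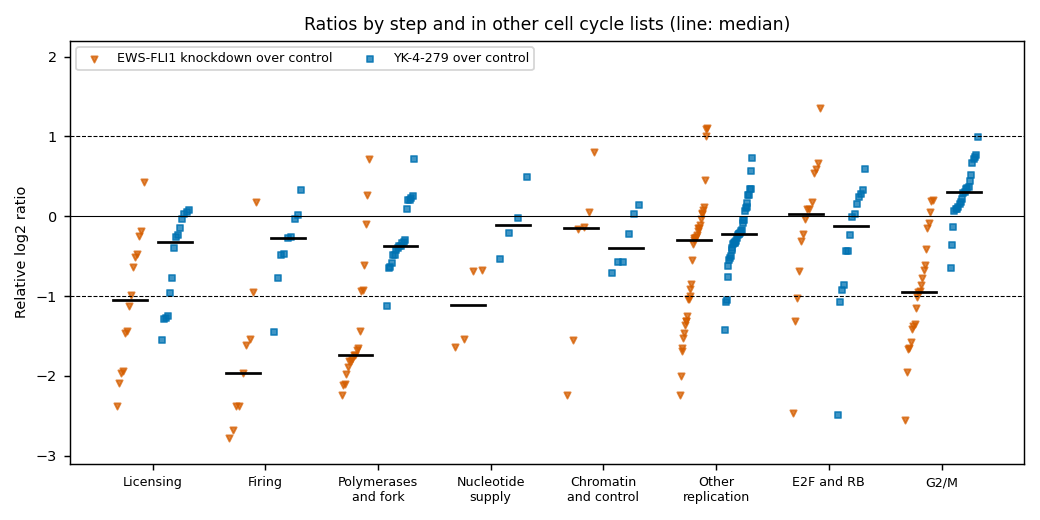
Relative log2 ratio to control of each compared gene, by step of replication and in the lists of other replication factors, E2F and RB genes and G2/M genes, with knockdown of EWS-FLI1 (orange triangles) left of YK-4-279 (blue squares) in each list. Horizontal strokes are medians and dashed lines mark the threshold of 1. The G2/M medians are -0.94 after knockdown and 0.30 with YK-4-279, and the isolated low points of the E2F and RB list are CCNE2 at -2.47 and -2.49.

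Markers of other cell types were read in the same libraries. The 6 Ewing sarcoma markers summed to 42.4 scaled FPKM in the knockdown library, 228 with YK-4-279 and 257 in the control. STEAP1 alone had 30.8, 148 and 177 in the same order of libraries, and CD99 was listed at 0 in all 3. Of the 5 Ewing markers compared, 4 were lower after knockdown and NKX2-2 was at 0.43. With YK-4-279 the ratio lay below 0 for 3 of the 5, while NR0B1 was at 0.37 and NKX2-2 at 0.36. The 9 fibroblast and matrix genes summed to 173, 33.3 and 27.9, of which COL3A1 alone had 112 in the knockdown library, 3.40 with YK-4-279 and 1.13 in the control. Of the 6 compared, 5 were higher after knockdown and DCN was lower, with 1.70, 5.76 and 8.82 (-1.86). Among all compared genes 17.3% were higher and 17.0% lower after knockdown. THY1, below the level needed for a comparison, had 0.038, 4.48 and 0.154. The 5 endothelial markers summed to at most 1.5 and the 5 leukocyte markers to at most 1.11 in any library, and no gene of either list reached 1 scaled FPKM. The part of these differences in the members' ratios was not tested.

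Some member values may hold reads of other genes, since the strand setting of the counting is not given in the sources used here. In GENCODE release 29, 23 members share exon sequence positions with another gene, among them TYMS with ENOSF1, MCM7 with AP4M1, FEN1 with TMEM258 and PRIM1 with NACA. In addition, 10 members have named processed pseudogenes, among them PCNA, RPA2 and RRM2, and how reads that map to several places were treated is not given either. Values of these genes are uncertain to that extent.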

How the data were processed

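Total RNA of 3 TC32 cultures was sequenced after SMARTer cDNA synthesis and ligation-mediated PCR, per the labels' protocols, with 1 library per group. The authors deposited FPKM values for 88434 loci per library, of which 63683 had no gene name. Build GRCh37 (hg19) and the tools TopHat, Cufflinks 2.2.1 and CASAVA 1.8.2 are named in the submitters' processing notes. Annotation, filters, strand setting and any scaling between libraries were not given in the sources used here.

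FPKM was summed per gene name, and names with a mean of at least 1 were compared. Scale factors are the median, over compared names above 0 in all 3 libraries, of the ratio to the geometric mean. With 1 library per group no test was made. Depth in reads was not used. Fragments were estimated from the lowest values of olfactory receptor genes, at which 1 fragment in 1 kb was worth 0.0174 FPKM after knockdown, 0.0126 with YK-4-279 and 0.0657 in the control, and from GENCODE release 29 transcript lengths. Counting standard errors come from these estimates and are approximate. Python 3.11.15, numpy 2.4.6 and pandas 2.3.3 were used, and the calculation was tested on simulated data. The level trend is the running median over 501 genes ranked in the library outside the comparison. GENCODE and RefSeq are of a later build, so they gave lengths, overlaps and promoters only.

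The members and all lists were chosen with earlier results of these data known. Members are named by a fixed rule, which takes in each step the 4 largest ratios and the 1 nearest 0 per comparison with control, with the main licensing, firing and nucleotide genes. Of the other lists the 3 lowest and 3 highest were named. Further members were named after their values were seen, where a result turned on them. Alternatives were 4 other scalings and the deposited scale, a pseudocount of 0.1, 3 other filters, exact gene names and a 1.5-fold threshold.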

Additional observations from a re-analysis of the deposited data

How the results depend on the processing

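Directions of the members' medians relative to the median gene were the same under all 5 scalings in the 3 comparisons, but the counts were not. Percentages in brackets here are shares of all compared genes. As deposited, 51 members were lower after knockdown (71.4%) and 51 were lower with YK-4-279 (92.2%). In YK-4-279 over knockdown 2 were lower (21.5%) and 8 higher (5.08%). Centred deposited ratios gave 35 lower after knockdown (23.6%), and 12 lower (4.49%) and 1 higher (12.3%) with YK-4-279. Scaling to the same sum gave 27 lower (6.56%) and 2 higher (33.3%) after knockdown. In YK-4-279 over knockdown it gave 4 lower (31.3%) and 9 higher (5.88%). Removing the level trend gave 17 lower after knockdown (8.60%). In YK-4-279 over knockdown it gave 2 lower (11.9%) and 9 higher (7.65%), and turned MCM7 to -0.058. A pseudocount of 0.1 gave 1 higher after knockdown and 1 higher with YK-4-279, and kept the other 4 counts within 1.5 times. No share of all compared genes is given for that pseudocount, so these counts are not read further. A threshold of 1.5-fold gave 39 lower (29.5%) and 2 higher (29.3%) after knockdown, and 12 lower (7.07%) and 1 higher (8.28%) with YK-4-279. In YK-4-279 over knockdown it gave 2 lower (26.6%) and 37 higher (27.5%). Scaling on all named genes above 0, chosen after seeing the data, gave 41 lower after knockdown (33.8%) and 17 lower with YK-4-279 (8.18%). That scaling moved the median of all compared genes to -0.50 after knockdown and -0.38 with YK-4-279. Scaling to the same sum moved it to 0.50 after knockdown. Other filters and exact gene names kept each count within 1.5 times, and the cause of these shifts was not tested. No paired analysis was possible because each group has 1 library. For the same reason no replicate could be left out, and depth, estimated at 98.4 fragments or more per library for each of the 52 compared members, limits the scarcest of them, and POLD1, which was not compared, had 29.4 in the knockdown library.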
